A study of Mus musculus with 8 samples.

Results

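The 10 genes described here are ligands, secreted antagonists and target genes of bone morphogenetic protein (BMP) signaling, measured by RNA-seq in whole uteri of mice at postnatal day 10 (PD10). They are the ligands *Bmp2*, *Bmp4*, *Bmp7* and *Gdf5*, the antagonists *Nog*, *Grem1* and *Chrd*, and the targets *Id1*, *Id3* and *Smad6*. They were taken by symbol from 27179 genes counted, and all 10 were among the 16658 genes tested, with over 0.2 CPM (counts scaled to the size of the library) in each of the 8 libraries. The 4 control mice were *Ezh2* f/f and carried no Cre. The 4 *Ezh2 Amhr2*-Cre cKO mice were *Ezh2* f/f with Cre (Acre in the labels), so every mouse carried the floxed allele. *Amhr2*-Cre is active in uterine cells that stem from mesenchyme and not in the epithelium, while the RNA came from all cells of the uterus. The mice were of a mixed C57BL/6/129SvEv background, and each uterus gave 1 library. The genes were chosen by function with their fold changes between these genotypes already known, so those differences are a description of these libraries and not independent evidence.

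BMP ligands are secreted dimers that bring together type I and type II serine/threonine kinase receptors, which phosphorylate SMAD1, SMAD5 and SMAD9. With SMAD4 these enter the nucleus and induce the *Id* genes and the inhibitory SMADs, which feed back on the pathway. Noggin, gremlin and chordin bind ligands outside the cell and keep them from their receptors. In the adult mouse uterus, BMP2 from stromal cells is known for its part in decidualization.

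In the cKO uteri, the antagonists moved in opposite directions. *Nog* was 2.91-fold lower and *Grem1* was 4.90-fold higher than in controls, while *Chrd* was at nearly the same level. Among the ligands, *Bmp7* was 1.80-fold lower, *Bmp4* was 1.37-fold lower and *Gdf5* was 2.07-fold higher. The targets differed by at most 1.22-fold, with overlapping libraries. By edgeR's quasi-likelihood test, Benjamini-Hochberg adjusted over all genes tested, 5 of the 10 were past an adjusted p-value of 0.05, 3 lower and 2 higher. The same threshold was passed by 5.34% of all genes tested, 2.62% higher and 2.71% lower, and since the genes were chosen with this contrast known, nothing is read from the difference. In the same 5 genes the libraries of both genotypes did not overlap, as in 12.3% of all genes tested (5.90% higher and 6.43% lower in cKO uteri). Of the 10, *Gdf5*, *Nog* and *Grem1* also passed the 2-fold threshold of the study, as did 1.30% of all genes tested. Levels are given as CPM scaled with edgeR's TMM method unless they are said to be per kb of transcript, errors are SD over 4 mice, and a positive log2 fold change means a higher level in cKO uteri.

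**Figure D1:**
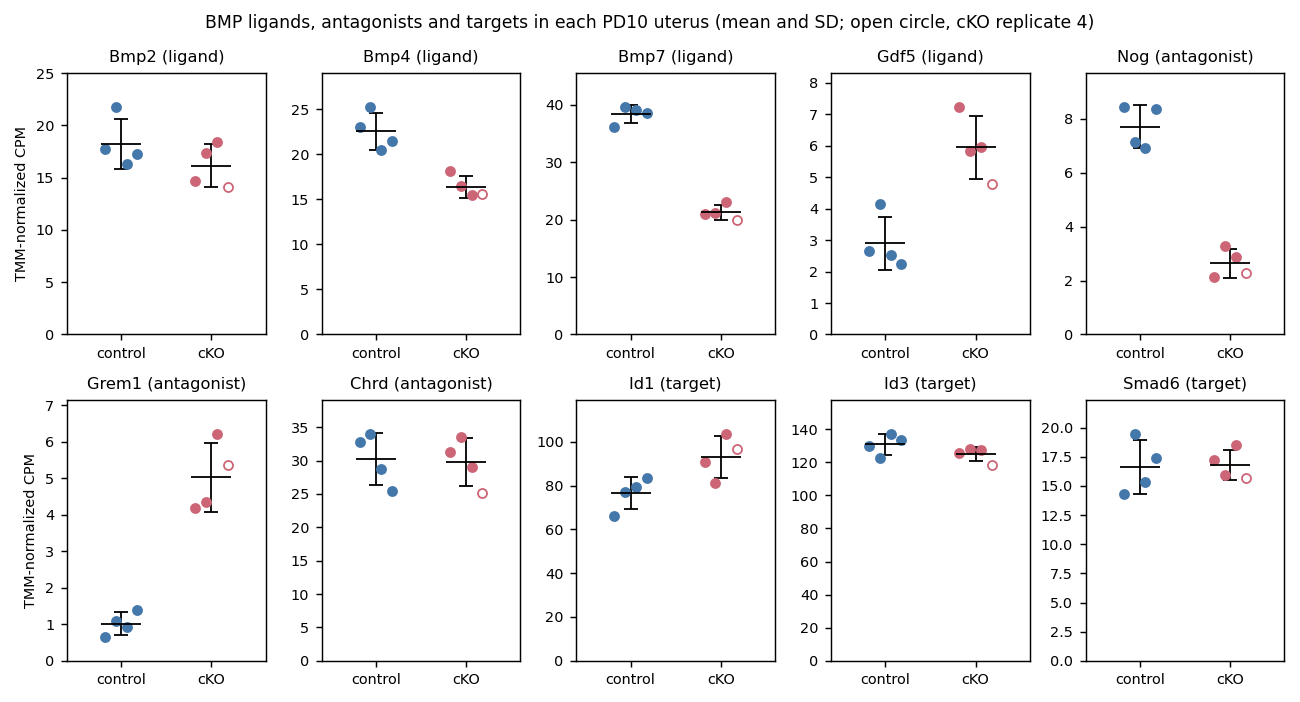
TMM-normalized CPM (vertical axes, from 0) of the 10 genes in each control (blue) and cKO (red) uterus, with the mean and SD of each genotype and cKO replicate 4 as an open circle. The genotypes do not overlap for *Bmp4*, *Bmp7*, *Gdf5*, *Nog* and *Grem1*, and overlap for the other 5 genes.

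*Ezh2* itself had a mean of 45.0 ± 8.70 CPM (controls) and 36.8 ± 4.41 CPM (cKO), with a log2 fold change of -0.29 (SE 0.13) that was not past the threshold (adjusted p = 0.247 by edgeR), and the libraries overlapped. The counts cover the whole gene, including exons outside the floxed part, and cells without Cre, so they are a weak check of the labels. Libraries held 25287141 to 36685807 counts, and 3 counts, the limit that a count of 0 allows, correspond to 0.0824 to 0.117 CPM. Markers of fat stood apart in cKO replicates 1 to 3. The 8 fat markers (*Adipoq*, *Fabp4* and others) summed to 127.4 to 285.5 CPM in these libraries, 2.91 CPM in cKO replicate 4 and 2.31 to 4.22 CPM in controls, and of 6 tested none was past the threshold. Values are therefore also given for cKO replicate 4. A fat score, the mean log2 level of these markers, was 3.01 to 4.42 in cKO replicates 1 to 3. It was -1.91 in cKO replicate 4 and -1.97 to -1.04 in controls. A fit with this score as a covariate thus mainly compares cKO replicate 4 with the controls. It is not a check separate from cKO replicate 4 alone. Markers of smooth muscle and epithelium summed to 7392 to 9389 and 1267 to 1731 CPM over the 8 libraries. Markers of stroma summed to 8252.5 to 10745.5 CPM in controls and 12575.8 to 12676.3 CPM in cKO replicates 1 to 3. In cKO replicate 4 their sum was 9893.6 CPM, within the control range. Of the stroma markers, *Col3a1* had the highest CPM, with means of 6287 (controls) and 8063 (cKO). The markers of smooth muscle, epithelium and stroma were all above the filter. The number of markers with an adjusted p-value under 0.05 was 0 of 7 for smooth muscle, 0 of 8 for epithelium, 2 of 7 for stroma (*Col3a1* higher and *Hoxa11* lower), 0 of 8 for blood endothelium, 0 of 5 for mesothelium, 0 of 5 for macrophages, 0 of 4 for oviduct and 0 of 2 tested for ovary. It was 3 of 6 tested for skeletal muscle, 1 of 5 for Schwann cells and 1 of 3 tested for cartilage and bone, all higher in cKO uteri. The ovary marker *Fshr* was at 0 in every library and *Zp3* was at most at 0.107 CPM, while *Foxl2*, which the uterus also expresses, had means of 51.9 CPM (controls) and 44.6 CPM (cKO), and *Gdf9* of 1.61 and 1.32 CPM. *Amh* and *Nr5a1* were at most at 0.167 CPM. In bulk tissue, fewer cells of a type and less RNA per cell cannot be told apart. The part of these cell types in the values below was not tested.

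The promoters of a gene whose level rose, of one whose level fell and of one that did not pass the test are shown first, since their sequence was not used to choose them. RefSeq promoters of GRCm38 were at hand for 5 of the 10 genes, *Bmp4*, *Grem1*, *Chrd*, *Id3* and *Smad6*. The 250 bases before the transcription start are given for 3 of them, 5′ to 3′ on the strand of the gene. *Grem1*, the antagonist that rose, is at chr2:113758649-113758898 on the minus strand. *Chrd*, an antagonist whose fold change was near 0, is at chr16:20732877-20733126 on the plus strand, inside the extent that RefSeq gives the gene. *Bmp4*, a ligand that fell, is at chr14:46390670-46390919 on the minus strand. Capitals mark GGCGCC, a GC-rich motif that SMAD1 and SMAD5 can bind.
Grem1: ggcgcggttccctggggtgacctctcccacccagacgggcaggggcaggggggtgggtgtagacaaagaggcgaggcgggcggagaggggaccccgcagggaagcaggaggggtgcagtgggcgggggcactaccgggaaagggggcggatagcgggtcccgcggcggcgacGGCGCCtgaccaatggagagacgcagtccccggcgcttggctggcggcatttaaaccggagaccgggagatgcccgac
Chrd: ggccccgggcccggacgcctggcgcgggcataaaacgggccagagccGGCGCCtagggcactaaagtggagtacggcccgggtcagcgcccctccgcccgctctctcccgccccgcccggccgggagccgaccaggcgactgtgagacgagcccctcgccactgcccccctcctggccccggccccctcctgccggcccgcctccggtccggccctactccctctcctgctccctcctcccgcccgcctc
Bmp4: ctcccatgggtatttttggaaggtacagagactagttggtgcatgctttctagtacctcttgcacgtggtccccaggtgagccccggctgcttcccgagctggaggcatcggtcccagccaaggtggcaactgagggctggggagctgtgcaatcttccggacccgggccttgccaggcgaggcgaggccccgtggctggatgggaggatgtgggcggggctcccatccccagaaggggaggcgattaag

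GGCGCC, which reads the same on both strands, began 78 bases before the start of *Grem1* and 203 bases before that of *Chrd*, and was not in these letters for *Bmp4*, *Id3* or *Smad6*. Of the 32851 promoters in the RefSeq table, 9.59% held it in the same 250 bases. The palindrome GTCTAGAC, which SMAD3 and SMAD4 bind, was in none of the 5 windows of 250 bases. In *Smad6* it lay across the transcription start, within the 300 bases that reach 50 past the start, which hold it in 0.213% of all promoters. The motifs share no bases with each other. CpG dinucleotides, which are dense at the promoters where polycomb repressive complex 2 is found, numbered 24 in *Grem1*, 28 in *Chrd*, 27 in *Smad6*, 18 in *Id3* and 11 in *Bmp4*, against a median of 6 over all promoters. As many CpG as in *Grem1* were found in 12.0% of all promoters, as many as in *Chrd* in 7.61%, and as many as in *Bmp4* in 35.6%. A match of letters is a description and not a binding site.

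Among the ligands, *Bmp7* (Entrez 12162, chromosome 2 of GRCm38 from 172868012 to 172940321) gave the most even values. BMP7 is a ligand of the BMP5, BMP6 and BMP7 group, known for its part in kidney and eye development. Its level was 36.1, 39.5, 39.1 and 38.6 CPM in control replicates 1 to 4 and 20.9, 21.2, 23.0 and 19.9 CPM in cKO replicates 1 to 4. The genotypes were far apart, and the SD was 1.52 CPM in control and 1.28 CPM in cKO libraries. This gives a log2 fold change of -0.85 (SE 0.07, adjusted p = 2.71e-05 by edgeR). With cKO replicate 4, the cKO library with few fat transcripts, alone against the controls it was -0.94. Epithelial markers (*Epcam*, *Krt8* and others) summed to 1403 to 1731 CPM in cKO and 1267 to 1493 CPM in control uteri. The part of epithelium or fat in the *Bmp7* difference was not tested.

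*Bmp4* (Entrez 12159, chromosome 14 from 46383525 to 46390669), a close relative of *Bmp2* that acts in mesenchyme of many organs, was at 23.1, 25.2, 20.4 and 21.5 CPM in control replicates 1 to 4. In cKO replicates 1 to 4 it was at 18.1, 16.4, 15.5 and 15.6 CPM. Every cKO library was below every control library, with a log2 fold change of -0.46 (SE 0.09, adjusted p = 0.00968 by edgeR). With cKO replicate 4 alone it was -0.52 (adjusted p = 0.284 by edgeR), and with a fat score as a covariate it was -0.53 (adjusted p = 0.111), so the size was kept but not the call. RefSeq places the transcripts Gm15217 and Gm15222 over *Bmp4* and Gm40010 over *Bmp7*, and the strand setting of the counting is not given in the sources used here. Gm15217 was counted, at a mean of 0.0958 CPM in control uteri.

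*Bmp2* (Entrez 12156, chromosome 2 from 133552159 to 133562896), the ligand of decidualization, was at 17.8, 21.7, 16.3 and 17.2 CPM in control replicates 1 to 4 and at 14.7, 17.4, 18.4 and 14.1 CPM in cKO replicates 1 to 4. The genotypes overlapped. The log2 fold change was -0.17, with a 95% interval from -0.42 to 0.07 (adjusted p = 0.396 by edgeR). It was -0.36 with cKO replicate 4 alone, -0.37 when a fat score entered the fit and -0.08 without control replicate 2, not past the threshold in any of these.

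*Gdf5* (Entrez 14563, chromosome 2 from 155941023 to 155945367) was the ligand that rose. GDF5 is known for the formation of joints and prefers the receptor BMPR1B. It was at 2.65, 4.14, 2.53 and 2.25 CPM in control replicates 1 to 4 and at 7.22, 5.82, 5.95 and 4.80 CPM in cKO replicates 1 to 4. All cKO libraries were above all controls, the lowest being cKO replicate 4, and control replicate 2 stood above the other controls. The log2 fold change was 1.05 (SE 0.20, adjusted p = 0.00851 by edgeR). It was 0.75 with cKO replicate 4 alone (adjusted p = 0.655) and 0.74 with the fat score as a covariate (adjusted p = 0.328), both under 2-fold and not past the threshold. Of the 6 markers of cartilage and bone, *Acan* was higher in cKO uteri (0.188 ± 0.123 CPM in control against 0.667 ± 0.192 CPM, SD, n = 4, adjusted p = 0.0331 by edgeR), *Sp7* had the highest CPM, at 5.10 ± 0.371 CPM in controls and 5.87 ± 1.41 CPM in cKO uteri (adjusted p = 0.485 by edgeR), *Col2a1* was at most at 0.464 CPM, and *Matn1*, *Ibsp* and *Bglap* were under 0.1 CPM in every library. The receptor gene *Bmpr1b* had a mean of 12.2 ± 1.03 CPM (controls) and 11.6 ± 1.03 CPM (cKO), with a 95% interval of its log2 fold change from -0.29 to 0.14.

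Per kb of transcript, *Bmp4* (10.9 ± 1.01 CPM per kb) and *Bmp7* (10.5 ± 0.413) were the most abundant of the 4 ligands in control uteri and their libraries overlapped (SD, n = 4). *Bmp2* was at 5.14 ± 0.671 and *Gdf5* at 1.25 ± 0.365 CPM per kb, each apart from the next higher ligand. In cKO uteri the order was *Bmp4*, *Bmp7*, *Bmp2* and *Gdf5* as well, with *Bmp4* (7.95 ± 0.593) now apart from *Bmp7* (5.79 ± 0.349 CPM per kb, SD, n = 4). The sum of the 4 ligands was 26.2 to 30.9 CPM per kb in controls and 19.0 to 21.7 in cKO uteri, with no overlap. *Gdf5* made up 3.63% to 5.78% of that sum in controls and 10.9% to 14.3% in cKO uteri, and *Bmp7* 34.9% to 40.6% and 26.2% to 29.1%. These shares restate the changes of the single genes and were not tested. Lengths are those of the longest GENCODE transcript with a RefSeq match, 2064 bases for *Bmp4* and 3670 bases for *Bmp7*. Without scaling to length, *Bmp7* was above *Bmp4* in every library of both genotypes, so the order of these ligands depends on the scale.

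*Nog* (Entrez 18121, chromosome 11 from 89300638 to 89302559) encodes noggin, which covers the receptor-binding faces of BMP dimers. Its level was 8.42, 7.12, 6.92 and 8.37 CPM in control replicates 1 to 4 and 2.14, 3.28, 2.86 and 2.28 CPM in cKO replicates 1 to 4. The highest cKO library was far below the lowest control library. The log2 fold change was -1.54 (SE 0.16, adjusted p = 0.000131 by edgeR). It was -1.75 with cKO replicate 4 alone and -1.74, past the threshold, with the fat score as a covariate (adjusted p = 0.00876 by edgeR). Both values rest mainly on cKO replicate 4.

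*Grem1* (Entrez 23892, chromosome 2 from 113748675 to 113758648) encodes gremlin 1, a mesenchymal antagonist that binds BMP2, BMP4 and BMP7 and is known for limb and kidney development. It was at 0.662, 1.08, 0.928 and 1.40 CPM in control replicates 1 to 4, from 21 counts upward, and at 4.19, 4.35, 6.22 and 5.36 CPM in cKO replicates 1 to 4. Each cKO library had over 2-fold the level of the highest control library. The log2 fold change of 2.29 (SE 0.23, adjusted p = 0.000118 by edgeR) was the largest of the 10 genes. It was 2.39 with cKO replicate 4 alone (adjusted p = 0.0386) and 2.42 with the fat score as a covariate (adjusted p = 0.00364).

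*Chrd* (Entrez 12667, chromosome 16 from 20731425 to 20742384) encodes chordin, which is cut and inactivated by proteases of the tolloid family. It was at 32.8, 34.0, 28.7 and 25.4 CPM in control replicates 1 to 4 and at 31.3, 33.6, 29.0 and 25.1 CPM in cKO replicates 1 to 4, and the genotypes overlapped over nearly their whole range. Its log2 fold change was -0.02 (95% interval -0.26 to 0.21, adjusted p = 0.929 by edgeR), an interval that leaves out changes of the size seen in *Nog* or *Grem1*. It was -0.26 with cKO replicate 4 alone and -0.28 with the fat score as a covariate, not past the threshold in either. *Thpo*, on the other strand, overlaps *Chrd* and was at 0.416 ± 0.0853 CPM in controls (SD, n = 4). How reads over both genes were counted is not given in the sources used here.

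The makeup of these 3 antagonist transcripts differed accordingly. Per kb, *Nog* was 14.6 to 31.1 times as abundant as *Grem1* in the control libraries and 1.04 to 1.84 times as abundant in the cKO libraries. Without scaling to length, *Nog* had 5.98 to 12.7 times the CPM of *Grem1* in controls and 0.425 to 0.754 times in cKO uteri, because the *Grem1* transcript (4148 bases) is longer than that of *Nog* (1695 bases). The order of both genes in cKO uteri therefore depends on the scale. *Chrd* made up 58.3% to 69.0% of the sum of the 3 antagonists per kb in controls and 72.6% to 80.0% in cKO uteri. *Nog* went from 29.2% to 39.0% in controls to 11.1% to 15.2% in cKO uteri, and *Grem1* from 1.09% to 2.66% to 8.22% to 13.0%. The sum of the 3 overlapped between genotypes (12.7 to 14.7 against 9.95 to 12.8 CPM per kb), and so did the ratio of summed ligands to summed antagonists (1.85 to 2.15 against 1.66 to 1.91). This ratio takes all ligands and all antagonists as equal, although they differ in affinity. The shares and the ratio cover only the antagonists and ligands chosen here. Other genes of these kinds had higher CPM. In controls the antagonist genes *Fstl1* and *Nbl1* had means of 1125 and 436.5 CPM, and the ligand gene *Gdf10* 442.5 CPM.

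**Figure D2:**
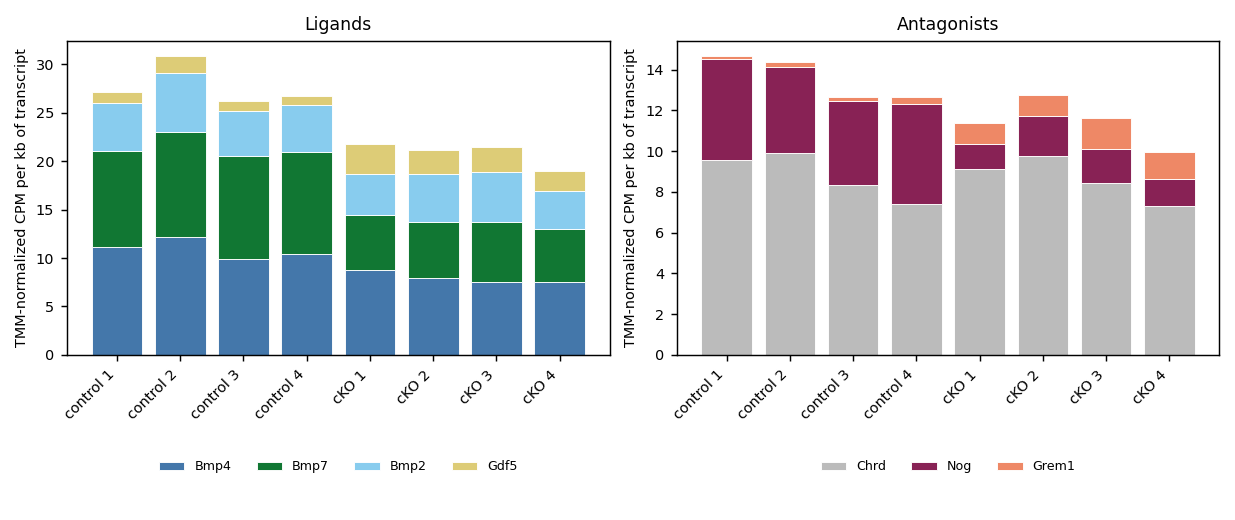
TMM-normalized CPM per kb of transcript of the 4 ligands (left) and the 3 antagonists (right), stacked for each of the 8 libraries. *Bmp7* and *Nog* take a smaller part and *Gdf5* and *Grem1* a larger part of each cKO bar, and the heights of the *Chrd* part overlap between genotypes.

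The targets were read as a transcript-level record of the pathway. *Id1* (Entrez 15901, chromosome 2 from 152736251 to 152737410) encodes an inhibitor of basic helix-loop-helix factors and is among the most direct BMP targets. It was at 66.3, 77.0, 79.2 and 83.3 CPM in control replicates 1 to 4 and at 90.6, 81.3, 103.7 and 96.7 CPM in cKO replicates 1 to 4. Of the cKO libraries, replicate 2 lay within the range of the controls and the other 3 above it. The log2 fold change was 0.28 (SE 0.08, 95% interval 0.10 to 0.47) and the adjusted p-value of 0.0741 by edgeR was not under 0.05. It was under 0.05 in 3 of 18 alternatives, among them the fit without cKO replicate 2 (adjusted p = 0.0456 by edgeR) and DESeq2 (adjusted p = 0.0334), and between 0.0270 and 0.498 over all of them.

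*Id3* (Entrez 15903, chromosome 4 from 136143822 to 136145392), a gene of the same family, was at 130.1, 122.5, 137.3 and 133.5 CPM in control replicates 1 to 4 and at 125.7, 128.1, 127.5 and 118.6 CPM in cKO replicates 1 to 4. The genotypes overlapped, and the log2 fold change of -0.07 had a 95% interval from -0.18 to 0.05 (adjusted p = 0.518 by edgeR). *Smad6* (Entrez 17130, chromosome 9 from 63953076 to 64022085), an inhibitory SMAD that is induced by BMP and is abundant in endothelium, was at 14.3, 19.5, 15.3 and 17.4 CPM in control replicates 1 to 4. In cKO replicates 1 to 4 it was at 17.2, 15.9, 18.5 and 15.7 CPM, all within the range of the controls. Its log2 fold change was 0.02 (95% interval -0.21 to 0.24, adjusted p = 0.942 by edgeR). Markers of blood endothelium summed to 817.4 to 1030 CPM in control and 847.2 to 1064 CPM in cKO uteri. Per kb, *Id3* (102.4 ± 4.94) and *Id1* (81.9 ± 7.79 CPM per kb, SD, n = 4) were the most abundant of the 10 genes in controls and did not overlap. In cKO uteri they did, at 97.8 ± 3.43 and 99.6 ± 10.2 CPM per kb (SD, n = 4). In CPM, not scaled to length (1278 bases for *Id3* and 934 for *Id1*), *Id3* was above *Id1* with no overlap in both genotypes.

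To place the 10 genes in their pathway, 60 other genes of BMP signaling were read from the same fit, of which 55 were tested. Of these, 6 passed the threshold, 3 higher and 3 lower in cKO uteri, or 10.9% against 5.34% of all genes tested. Both counts depended on single libraries. The 6 became 3 when control replicate 1, cKO replicate 1 or cKO replicate 2 was left out, and 11 when cKO replicate 4 was. The 889 calls over all genes became 393 to 571 when control replicate 1 or 3 or any of cKO replicates 1 to 3 was left out, and 1773 when cKO replicate 4 was. None of the 55 other pathway genes tested changed by 2-fold or more. Their median log2 fold change was 0.00, as over all genes tested, and 9 of the 55 had libraries that did not overlap, where 12.3% of all genes tested did not. The 6 genes were ligands, antagonists, transducers or targets. The calls of *Bmper*, *Id4* and *Runx2* were lost in the fit with a fat score and in that with cKO replicate 4 alone, where their log2 fold changes were 0.91 and 0.88, 0.51 and 0.55, and -0.59 and -0.58, and those of the other 3 in these and further alternatives. In each list the gene with the highest CPM is also given, a ranking that is not scaled to transcript length.

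**Figure D3:**
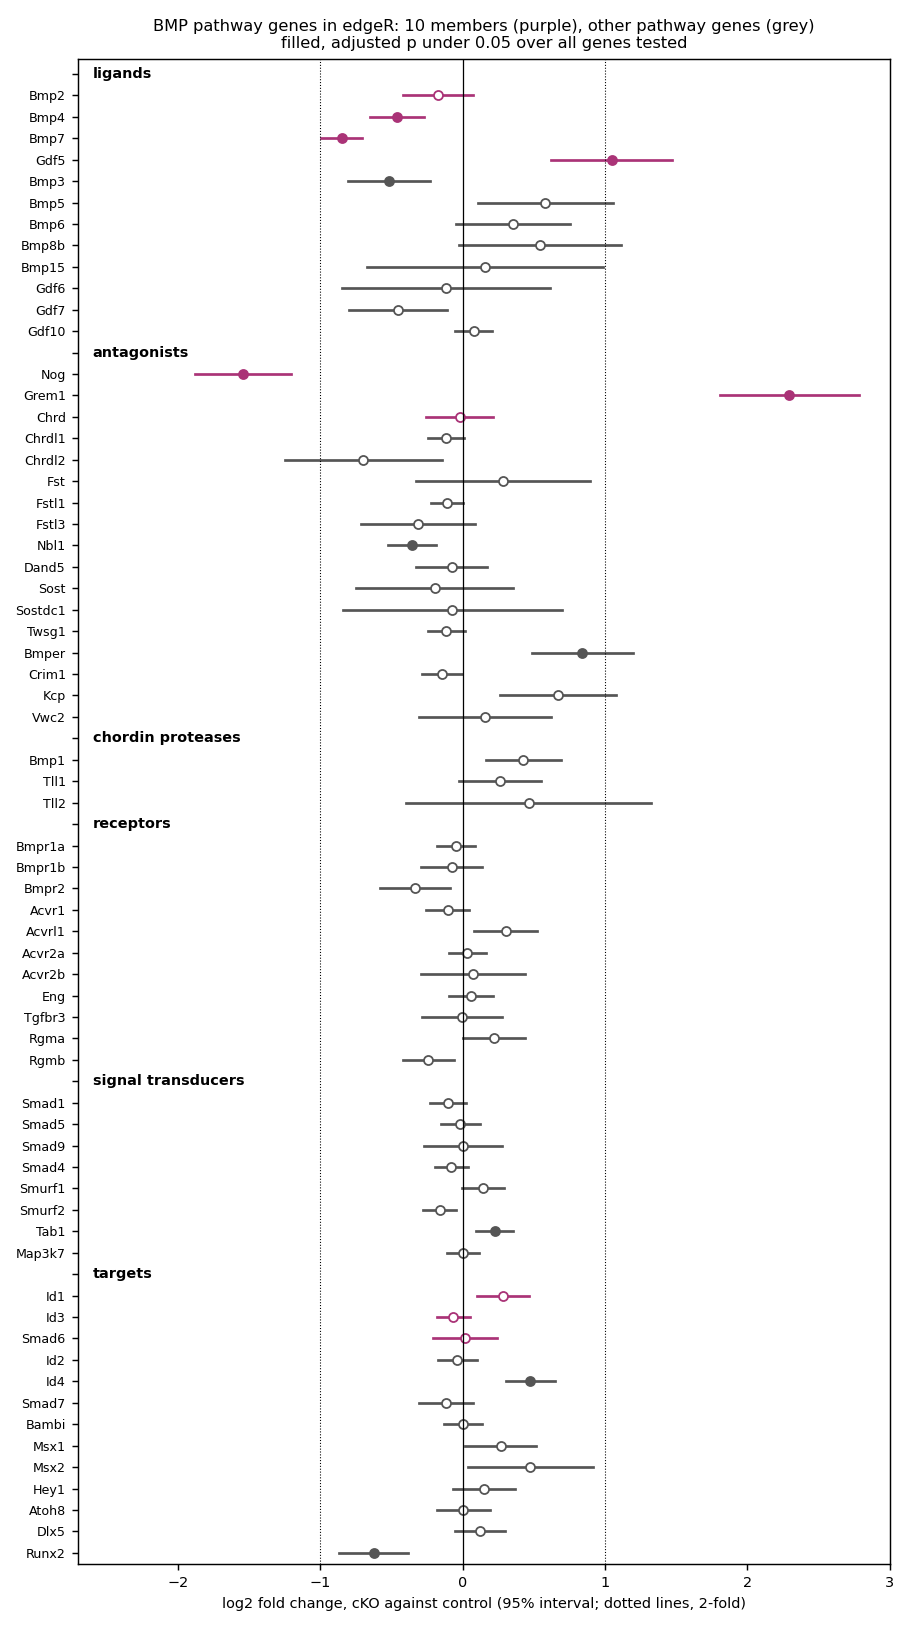
Log2 fold changes of cKO against control (horizontal axis) with 95% intervals from edgeR for the 10 genes (purple) and other BMP pathway genes tested (grey), with filled circles for an adjusted p-value under 0.05. *Nog* (-1.54) and *Grem1* (2.29) lie farthest from 0, and no receptor is filled.

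Of 8 other ligands tested, 1 was past the threshold. This was *Bmp3*, an atypical ligand that opposes other BMPs, whose mean fell from 9.74 ± 0.602 to 6.79 ± 1.22 CPM (log2 fold change -0.52, SE 0.13, adjusted p = 0.0411 by edgeR). The call was lost in 8 of 18 alternatives, 6 of them fits without 1 library. The ligand with the highest CPM was *Gdf10*, at 442.5 ± 30.1 and 466.6 ± 11.4 CPM, with a log2 fold change of 0.08 (95% interval -0.05 to 0.21). *Bmp8a*, *Bmp10* and *Gdf2* were under the filter, and *Bmp10* was at 0 in every library.

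Of 15 other antagonists tested, 2 were past the threshold. *Bmper*, which encodes a secreted chordin-like modulator of BMPs, rose from 4.06 ± 0.940 to 7.32 ± 0.788 CPM, or by 0.84 on the log2 scale (SE 0.16, adjusted p = 0.0110 by edgeR). *Nbl1*, which encodes a secreted antagonist of the DAN family to which gremlin also belongs, fell from 436.5 ± 50.5 to 341.1 ± 14.5 CPM (log2 fold change -0.36, SE 0.08, adjusted p = 0.0191 by edgeR), and its call was lost in 5 of 18 alternatives. The one with the highest CPM, *Fstl1*, was at 1125 ± 20.6 and 1044 ± 29.2 CPM (log2 fold change -0.11, adjusted p = 0.255 by edgeR). *Kcp*, a kielin/chordin-like gene, was not past the threshold (adjusted p = 0.0618 by edgeR). It was at 17.4 to 21.1 CPM in cKO replicates 1 to 3. In cKO replicate 4 it was at 10.5 CPM, within the control range of 9.88 to 12.2 CPM. The tolloid proteases that cut chordin gave 0 of 3 calls. The one with the highest CPM, *Bmp1*, had the same arrangement as *Kcp*. It was at 175.8 to 214.4 CPM in cKO replicates 1 to 3 and 138.7 CPM in replicate 4, against 132.7 to 148.3 CPM in controls. The cause of this arrangement was not tested.

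None of the 11 receptor and co-receptor genes tested was past the threshold in edgeR's quasi-likelihood test, and the lowest adjusted p-value was 0.109. Their log2 fold changes lay between -0.33 for *Bmpr2*, the main type II receptor, and 0.30 for *Acvrl1*, an endothelial type I receptor. The one with the highest CPM, the type I receptor gene *Bmpr1a*, was at 285.7 ± 5.13 and 276.2 ± 21.8 CPM, with a 95% interval of its log2 fold change from -0.18 to 0.09. Of 8 signal transducers, *Tab1*, which encodes a partner of the kinase TAK1, was past the threshold with a log2 fold change of 0.22 (SE 0.06, adjusted p = 0.0479 by edgeR), a call that was lost in 12 of 18 alternatives. *Smad5*, with the highest CPM of them, had a log2 fold change of -0.02 and *Smad1* of -0.10.

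Of 10 other targets, 2 were past the threshold, in opposite directions. *Id4*, a further *Id* gene, rose from 48.7 ± 4.14 to 67.5 ± 6.33 CPM (log2 fold change 0.47, SE 0.08, adjusted p = 0.00436 by edgeR). *Runx2*, a transcription factor of bone formation, fell from 12.0 ± 1.36 to 7.79 ± 0.684 CPM (log2 fold change -0.63, SE 0.11, adjusted p = 0.00610 by edgeR). *Id2*, the target with the highest CPM, was at 295.0 ± 18.8 and 287.6 ± 14.9 CPM (log2 fold change -0.04, adjusted p = 0.771 by edgeR). The feedback inhibitors *Smad7* (-0.12) and *Bambi* (0.00) had log2 fold changes near 0, with 95% intervals from -0.31 to 0.07 and from -0.13 to 0.14. Of the *Id* genes, *Id4* alone was past the threshold in this test, and the feedback inhibitors *Smad6*, *Smad7* and *Bambi* were not past the threshold.

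Genes next to the 10 on the chromosome were also read, in a window of 100 kb on either side that was chosen after the values had been seen. RefSeq lists 60 genes there, of which 25 were tested and 2 were past the threshold, where 5.34% of all genes tested were. The single gene tested near *Nog* was one of them. *Ankfn1* (Entrez 382543, chromosome 11 from 89390092 to 89777901) lies 87533 bases from *Nog* on the same strand. It was at 4.98, 3.98, 3.64 and 4.12 CPM in control replicates 1 to 4 and at 1.20, 1.20, 2.03 and 1.47 CPM in cKO replicates 1 to 4, with no overlap. Its log2 fold change of -1.49 (SE 0.20, adjusted p = 0.000857 by edgeR) was close to that of *Nog*. The neighbors of *Grem1* were not past the threshold. *Scg5* (0.01), *Fmn1* (0.21) and *Arhgap11a* (0.07) had log2 fold changes with adjusted p-values from 0.393 to 0.993 by edgeR. The same held for *Gdf5*, whose 5 neighbors tested had adjusted p-values from 0.0776 to 0.980. Near *Id3*, *Asap3* was higher in cKO uteri (log2 fold change 0.41, SE 0.09, adjusted p = 0.0166 by edgeR).

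The genes whose levels followed *Grem1* most closely across the 8 libraries were *Zfhx4*, *Trnp1*, *Ttll13*, *Irs4* and *Pccb*, with Pearson's r from 0.981 to 0.997 on log2(CPM + 0.1). They are the top 5 of all genes tested, and both genotypes enter r, so a gene that differs between genotypes scores high. *Zfhx4*, a zinc finger homeobox gene, rose from 5.26 ± 1.41 to 16.7 ± 1.56 CPM (log2 fold change 1.66, SE 0.16, adjusted p = 0.000126 by edgeR). *Irs4*, an insulin receptor substrate gene, rose with a log2 fold change of 0.83 (SE 0.09, adjusted p = 0.000249 by edgeR) and *Pccb*, a mitochondrial carboxylase gene, with 0.20 (SE 0.05, adjusted p = 0.0400). *Trnp1* and *Ttll13* were not past the threshold, with log2 fold changes of 0.36 and 0.43.

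Leaving out each library in turn kept all 5 calls among the 10 genes in all 8 fits. In these fits the log2 fold change was between -1.66 and -1.46 for *Nog*, 2.13 and 2.51 for *Grem1*, -0.89 and -0.82 for *Bmp7*, -0.51 and -0.40 for *Bmp4*, and 0.94 and 1.26 for *Gdf5*. The highest adjusted p-value in edgeR was 0.0421, for *Bmp4* without control replicate 1.

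**Figure D4:**
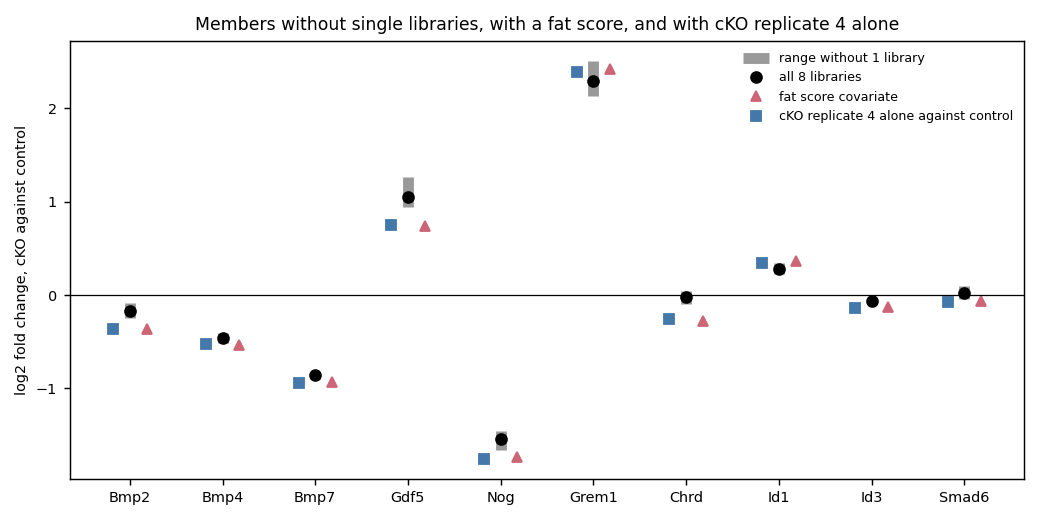
Log2 fold change of cKO against control (vertical axis) for the 10 genes with all 8 libraries (black), without 1 library (grey range over 8 fits), with a fat score as a covariate (triangles) and with cKO replicate 4 alone against the controls (squares). *Nog*, *Bmp7* and *Grem1* keep their size in each, and *Gdf5* falls from 1.05 to 0.74 and 0.75.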

How the data were processed

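Total RNA from whole uteri at PD10 was made into stranded mRNA libraries. Per the labels and the methods of the study, the authors trimmed reads with Trimmomatic, aligned them to GRCm38 with HISAT2 and deposited raw counts per Entrez gene from featureCounts, 1 file per library. Tool versions, annotation release, strand setting and multi-mapping setting are not given in the sources used here. The authors' edgeR table gave gene symbols, and its fold changes and p-values, like the authors' table of log2 CPM, were not used.

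The counts were tested with edgeR 4.0.16 in R 4.3.3. The filter (CPM over 0.2 in at least 4 libraries), TMM and robust = TRUE follow the study, and glmQLFit and glmQLFTest were chosen here. P-values were adjusted over 16658 genes. An SE is the log2 fold change divided by the square root of F, and 95% intervals use its t distribution. Alternatives used DESeq2 1.42.0, limma 3.58.1, other normalizations and filters, a replicate block, a fat score (mean log2(CPM + 0.1) of 8 fat markers), and fewer libraries. Lengths came from GENCODE M21 and positions and promoters from RefSeq. The genes and lists were chosen with earlier results of these data known. Genes named are the 10, *Ezh2*, pathway genes past the threshold, the gene of highest CPM in each list and the 5 genes most like *Grem1*. Outside this rule, *Bmpr1b*, *Bmpr2*, *Acvrl1*, *Smad1*, *Smad7*, *Bambi*, *Kcp*, *Acan*, *Bmp8a*, *Bmp10*, *Gdf2*, the single cell type markers and the neighbors were named after their values were seen. The counts for the pathway lists include 1 gene that is not named here. No pair of libraries was alike within sampling noise (chi-square per gene 7.57 to 30.7 over 28 pairs).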

Additional observations from a re-analysis of the deposited data

How the results depend on the processing

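The calls of *Bmp7*, *Nog* and *Grem1* held in all 18 alternatives, and those of *Bmp4* and *Gdf5* in 16. When the fat score was a covariate, 3 of the 10 genes, 0 of the other pathway genes and 117 of all genes (47 also over 2-fold) were past the threshold. With cKO replicate 4 alone these counts were 3, 0 and 35 (20). In that fit a single library is assumed to vary like the controls. The fit with the fat score also rests mainly on this library. DESeq2 gave 11 other pathway genes and 1510 genes in all, and a filter at 1 CPM gave 139 genes over 2-fold. Without 1 library, the 10 genes gave 5 or 6 calls, the other pathway genes 3 to 11, and all genes 393 to 1773 (134 to 320 over 2-fold). The calls over all genes were 393 without control replicate 1, 571 without control replicate 3, 452, 485 and 523 without cKO replicate 1, 2 or 3, and 1773 without cKO replicate 4. The cause was not tested.

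The sign turned for 2 genes near 0. *Chrd* was between -0.10 and 0.046 without 1 library. *Smad6* was between -0.048 and 0.10 without 1 library, -0.067 with the fat score and -0.075 with cKO replicate 4 alone. Without length scaling, the mean log2 ratio of *Grem1* to *Nog* went from -4.26 to -2.97 in controls and from -0.36 to 0.93 in cKO uteri, by construction.

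Same-numbered libraries did not deviate together in every pair (correlations from -0.00 to 0.19), so the numbers were not taken as pairs. A replicate block gave 6, 10 and 1240 calls among the 10 genes, the other pathway genes and all genes, and *Id1* then passed the threshold (log2 fold change 0.28, adjusted p = 0.0270 by edgeR). Among the other pathway genes, *Tab1* was lost in 12 alternatives, *Bmp3* in 8 and *Nbl1* in 5. Counts of 21 or more per library stood behind every value of the 10 genes.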
